A study of Mus musculus with 10 samples.

Results

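RYBP, a protein with a zinc finger, binds the ubiquitin ligases of the RING1 family. It is a core subunit of the variant forms of Polycomb repressive complex 1 (PRC1), which mark histone H2A with ubiquitin and keep developmental and germline genes silent. Embryonic stem (ES) cells are pluripotent cells kept undifferentiated by leukaemia inhibitory factor (LIF), and when they are gathered in hanging drops they form embryoid bodies in which mesoderm, heart muscle, blood and endoderm arise. The course of Rybp-null mouse ES cells from day 0 to day 8 of such a cardiac differentiation was followed here in 3 of the 10 RNA-seq libraries of the study, taken by their labels: 2 Rybp null mutant libraries of ES-derived cardiac cultures at day 8 and 1 Rybp null mutant ES cell library at day 0. The matched course of wild type cells, also 2 libraries at day 8 and 1 at day 0, was used only to show where the null course differed. The other 4 libraries, of day 14, entered the fit to add to the estimate of spread.

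Both genotypes carry the 129x1 x 129S1 strain background. ES cells were grown with serum and LIF, and total RNA was taken with TRIzol. The labels do not say how the null allele was made or whether the null cells were a single clone, and nothing in them says that the 2 libraries of a group came from separate cultures, so p-values measure only the spread between these libraries. The day 0 library has no replicate and was assumed to vary like the other groups. Library totals were 4164476 and 3366320 counts for null day 8 and 6890792 for null day 0, and 3028153, 3492732 and 3419681 counts for the wild type libraries of days 8, 8 and 0. Levels below are in CPM, counts scaled for library depth and by TMM. Calls were made at an adjusted p below 0.05, and a log2 change is that fitted for day 8 over day 0, with its standard error (SE). A gene at 0 counts in a group has a fold given as a bound against 3 counts over that group, and a gene with 1 to 3 counts has the ratio of pooled CPM with its 95% counting interval. Both cover counting error only. The 2 null day 8 libraries differed in some cell type genes, library 1 holding more of the blood and matrix genes and library 2 more of the pluripotency and visceral endoderm genes, and calls that rest on one of them are given with the value without it.

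Rybp (ENSMUSG00000072872) itself checked the genotype label. The null libraries held 2 and 1 counts of Rybp at day 8 and 3 counts at day 0, which are 0.484 and 0.288 CPM at day 8, against 0.508 CPM at day 0. In wild type cells it was at 38.3 and 43.1 CPM at day 8, against 76.2 CPM at day 0. The day 0 label was checked by Nanog and Pou5f1, which stood at 8244 and 154 CPM in the null ES cells. Heart muscle markers bore out the label of cardiac cultures only in part. Nkx2-5, a homeobox factor of early heart cells, had 0 counts in all 3 null libraries, but in wild type cells it also had 1 and 0 counts at day 8 and 0 at day 0, so it does not tell the cultures apart. Tnnt2 was present at day 8, and Myl7, the atrial myosin light chain chosen after its values were seen, had 0 counts at day 8 and 2 at day 0.

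Of 15819 genes tested, 5962 (37.7%) were called between null day 8 and day 0, 3013 (19%) higher and 2949 (18.6%) lower at day 8. At least 4-fold changes were seen in 1808 of the higher and 1203 of the lower genes, and at least 16-fold changes in 778 and 584. The split depended on the scaling: with library totals alone, which moved the median log2 fold change of all genes by 0.24, to 0.28 against 0.04 with TMM, 3690 genes were higher and 2199 lower (62.7% higher, against 50.5%). Changes are therefore relative to the TMM scaling. In wild type cells 6405 genes (40.5%) were called, 3358 (21.2%) higher and 3047 (19.3%) lower.

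**Figure D1:**
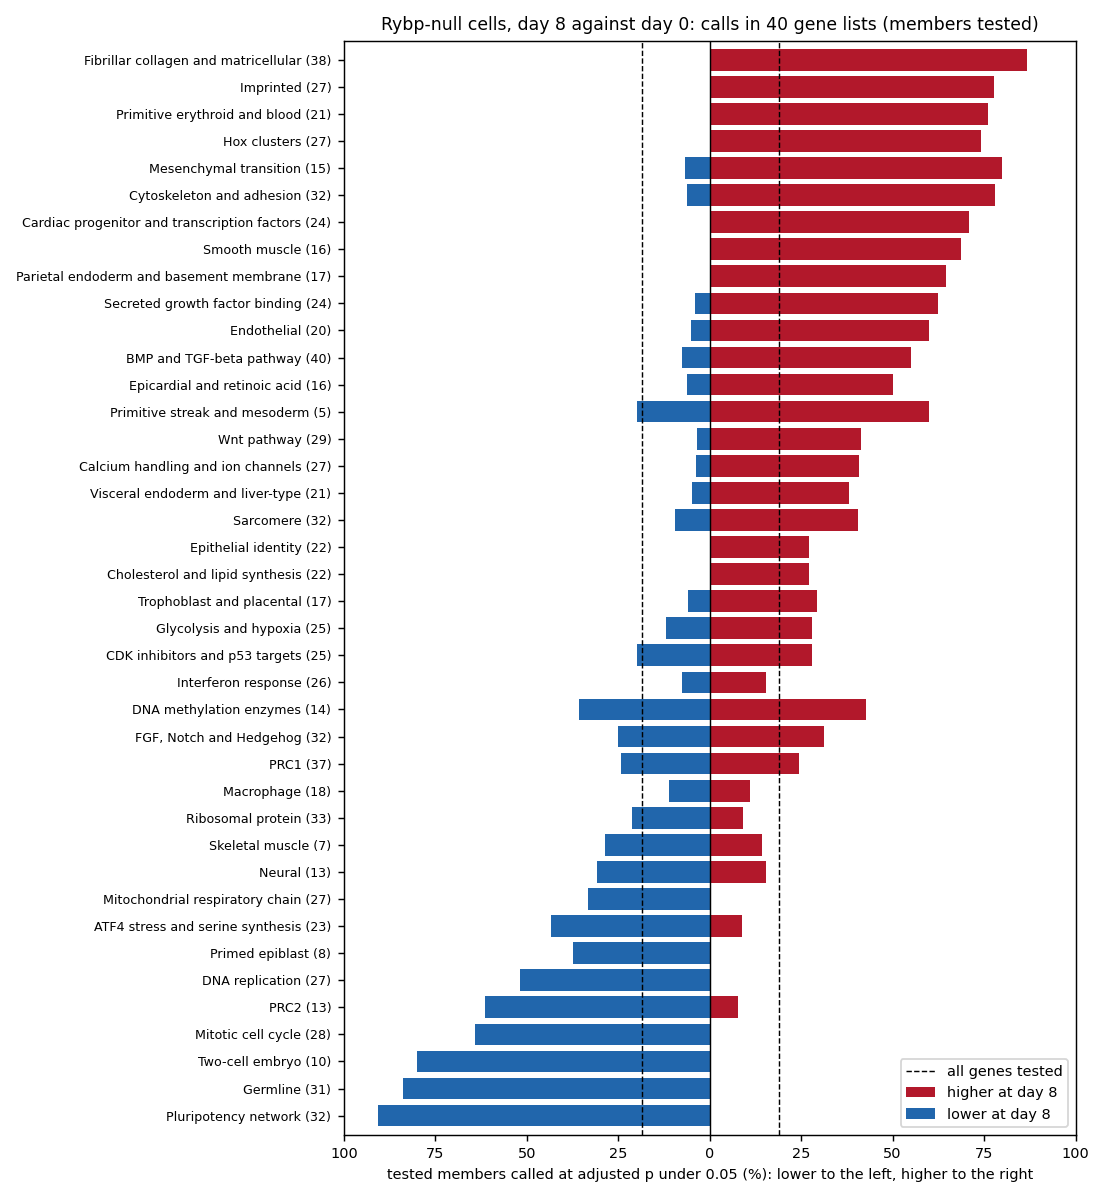
Share of the tested members of each of 40 gene lists called higher (right, red) or lower (left, blue) at day 8 against day 0 in Rybp-null cells, with the number tested in brackets. Dashed lines mark the shares of all genes tested, 19% higher and 18.6% lower. Matrix, mesenchymal, adhesion and imprinted lists lie furthest to the right, and pluripotency, germline and 2-cell embryo lists furthest to the left.

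Genes of the pluripotent state were far lower at day 8 than in ES cells. Of 32 genes of the pluripotency network, all tested, 29 fell and none rose, and the median log2 fold change was -5.35, or -4.72 with bounds (that is, with genes at 0 counts in a group set to their bound). Nanog, a homeobox factor of the naive state, was at 40.4 and 88.9 CPM at day 8, against 8244 CPM at day 0 (log2 change -7.00 with SE 0.59, adjusted p = 5.92e-05). Pou5f1, which encodes OCT4, was at 1.69 and 3.74 CPM at day 8, against 154 CPM at day 0 (log2 change -5.84 with SE 0.41, adjusted p = 8.59e-07). Sox2, its DNA-binding partner, was at 2.90 and 2.88 CPM at day 8, against 159 CPM at day 0 (log2 change -5.76 with SE 0.32, adjusted p = 1.91e-07). In each of these genes the day 8 libraries were far below the ES cells, with library 2 the higher for Nanog and Pou5f1. Esrrb, a nuclear receptor that sustains self-renewal, was at 5.80 and 3.74 CPM at day 8, against 707 CPM at day 0 (log2 change -7.18 with SE 0.38, adjusted p = 1.57e-07). Zfp42, known as REX1 and a marker of naive cells, was at 0.967 and 4.03 CPM at day 8, against 309.7 CPM at day 0 (log2 change -6.99 with SE 0.45, adjusted p = 4.8e-07). Tdgf1, a co-receptor for Nodal, was at 4.11 and 7.19 CPM at day 8, against 1151 CPM at day 0 (log2 change -7.68 with SE 0.53, adjusted p = 4.68e-06). The growth factor gene Fgf4 and the orphan receptor gene Nr0b1 ended at or near 0. Fgf4 was at 0 and 0.288 CPM at day 8, against 27.4 CPM at day 0 (209-fold lower, 95% counting interval 36.9 to 8291, adjusted p = 0.00012). Nr0b1 was at 0 and 0 CPM at day 8, against 9.14 CPM at day 0 (at least 23.2-fold lower, adjusted p = 0.00126). The list's summed level was 384 and 767 CPM at day 8, against 15443 CPM at day 0.

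The 3 members that did not pass were Tcl1, Trim71 and Lin28a, and the last of these, an RNA-binding protein that blocks let-7 maturation, was at 28.5 and 113 CPM at day 8, against 146 CPM at day 0 (log2 change -1.04 with SE 1.02, adjusted p = 0.473). These 3 were chosen after their values were seen. Markers of the primed epiblast, the stage after the naive state, were mostly low at both ends, and 3 of 8 tested (of 11 listed) fell. The share called was 37.5%, all lower, against 37.7% of all genes, of which 18.6% were lower. Otx2, a homeobox factor of the epiblast and forebrain, was at 4.11 and 4.89 CPM at day 8, against 87.7 CPM at day 0 (log2 change -4.28 with SE 0.50, adjusted p = 4.05e-05). Zic5 was at 0.242 and 0.863 CPM at day 8, against 17.3 CPM at day 0 (log2 change -4.94 with SE 0.79, adjusted p = 0.000415). Fgf5, the classical primed marker, was at 1.45 and 1.15 CPM at day 8, against 0.338 CPM at day 0, 3.88-fold higher, 95% counting interval 0.827 to 36.4, adjusted p = 0.265, which did not pass. The call of Dnmt3b (adjusted p = 0.0494) was lost without either day 8 library, at adjusted p = 0.252 without library 1 and 0.0782 without library 2.

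**Figure D2:**
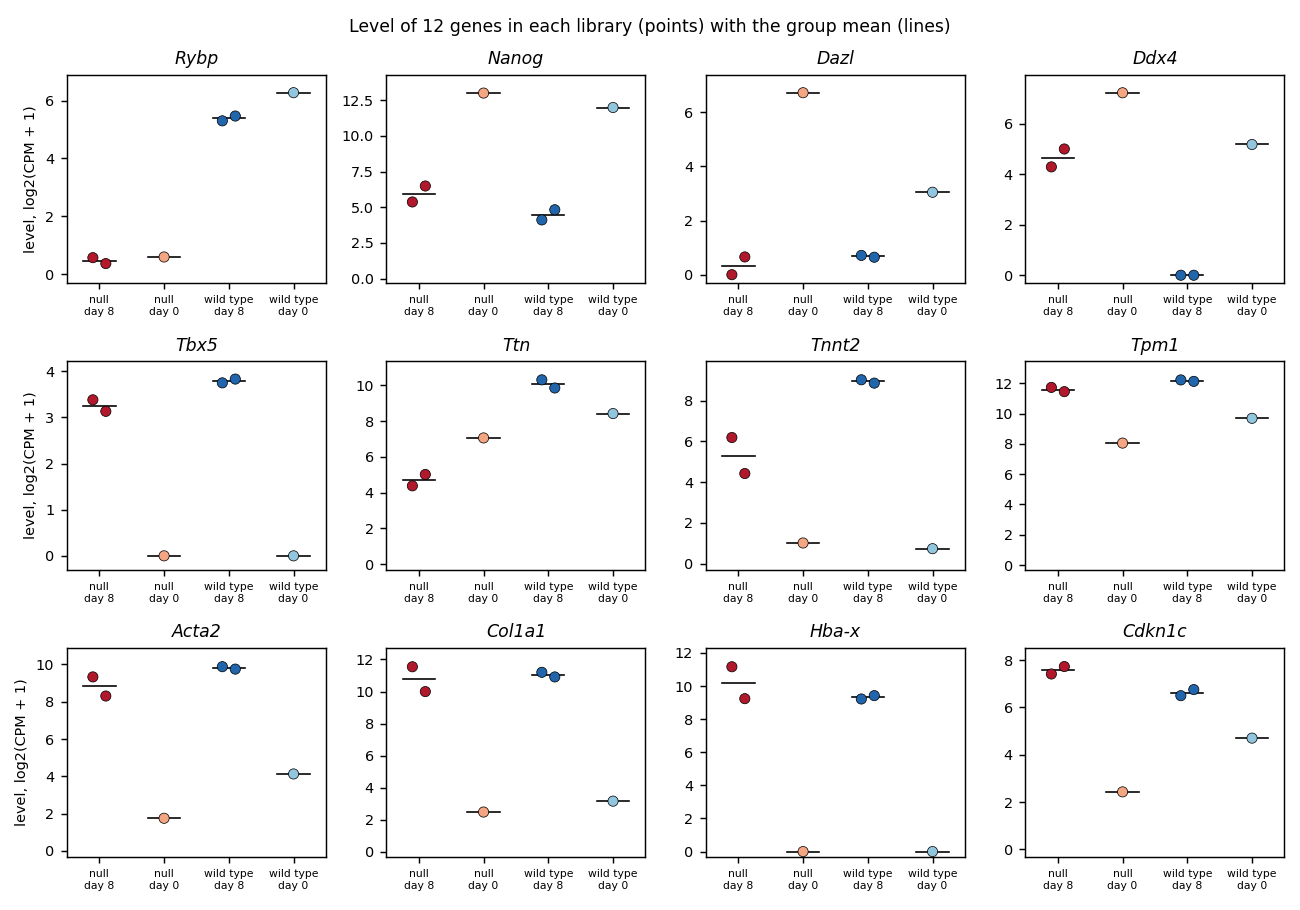
Level of 12 genes, log2(CPM + 1), in the Rybp-null day 8 and day 0 libraries and the wild type day 8 and day 0 libraries. Points are libraries and lines are group means, and each panel has its own axis. Nanog, Dazl, Ddx4 and Ttn lie lower at null day 8 than at null day 0, and Tbx5, Tnnt2, Tpm1, Acta2, Col1a1, Hba-x and Cdkn1c lie higher.

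Germ cell genes are among the best known targets of a variant PRC1 that holds RYBP together with MGA, MAX and E2F6, and ES cells that lack its subunits are known to transcribe them. MAX and its partners bind the E-box CACGTG, and TCCCGC is the core of an E2F site. Germline genes were present in the null ES cells and lower at day 8, though many kept some signal. Of 31 tested germline genes (of 36 listed), 26 fell and none rose, with a median log2 fold change of -2.26. The summed level was 352 and 466 CPM at day 8, against 2532 CPM at day 0. Wild type cells also held these transcripts, at a summed 105 and 111 CPM at day 8, against 999 CPM at day 0. To show the letters at the start of such genes, 200 bases before the RefSeq start (build GRCm38.p6, not the build of the counts) are given for 3 members that hold both motifs, in the direction of the gene. Capitals mark CACGTG, and TCCCGC written on the other strand as GCGGGA. Ddx4 encodes an RNA helicase of germ granules, and Hormad1 and Sycp3 encode proteins of the meiotic chromosome axis.
Ddx4, chr13:112652311-112652510, minus strand: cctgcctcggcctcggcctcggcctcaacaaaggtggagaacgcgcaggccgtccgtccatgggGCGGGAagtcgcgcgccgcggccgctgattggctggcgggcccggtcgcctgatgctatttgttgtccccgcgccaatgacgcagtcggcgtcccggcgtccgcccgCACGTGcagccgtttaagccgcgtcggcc
Hormad1, chr3:95559477-95559676, plus strand: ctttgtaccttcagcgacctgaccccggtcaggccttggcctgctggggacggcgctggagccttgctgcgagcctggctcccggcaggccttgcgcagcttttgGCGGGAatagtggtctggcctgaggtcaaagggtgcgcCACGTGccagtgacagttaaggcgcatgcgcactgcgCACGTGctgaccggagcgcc
Sycp3, chr10:88459387-88459586, plus strand: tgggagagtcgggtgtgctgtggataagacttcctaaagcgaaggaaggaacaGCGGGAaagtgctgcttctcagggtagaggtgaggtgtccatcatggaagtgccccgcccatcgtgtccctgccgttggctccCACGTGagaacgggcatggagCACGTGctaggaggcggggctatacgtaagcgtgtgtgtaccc

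CACGTG began 29 bases before the start in Ddx4, 57 and 20 bases before it in Hormad1, and 64 and 43 bases before it in Sycp3. On either strand, with windows from 250 bases before to 50 after the start, CACGTG was found in 15 of 28 promoters (53.6%) of the 23 matched germline genes that were called lower, in 0 of 5 promoters of those not called, and in 2349 of all 32851 RefSeq promoters (7.15%). TCCCGC was found in 12 of the 28 (42.9%), in 2 of the 5 and in 6562 of all promoters (20%). A match describes letters and is not evidence of binding, and no test was made.

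The 3 genes with printed promoters differed in how far they fell. Hormad1 was at 0 and 0 CPM at day 8, against 15.6 CPM at day 0 (at least 39.5-fold lower, adjusted p = 0.000728). Ddx4 was at 18.6 and 31.1 CPM at day 8, against 149 CPM at day 0 (log2 change -2.59 with SE 0.52, adjusted p = 0.00305). Sycp3 was at 11.6 and 33.7 CPM at day 8, against 91.4 CPM at day 0 (log2 change -2.02 with SE 0.49, adjusted p = 0.00715). Hormad1 was undetected at day 8, whereas Ddx4 and Sycp3 kept a level well above the floor in both libraries. Dazl, an RNA-binding protein needed for germ cell entry, was at 0 and 0.576 CPM at day 8, against 105 CPM at day 0 (399-fold lower, 95% counting interval 109.9 to 3299, adjusted p = 1.5e-06). Stra8, which carries the retinoic acid signal into meiosis, was at 0.242 and 0.576 CPM at day 8, against 36.6 CPM at day 0 (92.7-fold lower, 95% counting interval 31.3 to 453, adjusted p = 5.04e-05). Piwil2, a PIWI protein of the piRNA pathway, was at 0.725 and 1.15 CPM at day 8, against 48.2 CPM at day 0 (log2 change -5.66 with SE 0.73, adjusted p = 8.97e-05). Rnf17, a Tudor-domain protein of germ granules, was at 51.0 and 76.3 CPM at day 8, against 296 CPM at day 0 (log2 change -2.22 with SE 0.30, adjusted p = 0.000117). Sycp3 was chosen after its values were seen.

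The median of the germline list was -2.26 in null cells and -4.73 in wild type cells, without a test of that difference. Gene by gene, the median difference of the courses was 0.96, null minus wild type. For Rnf17 the difference between the courses passed (log2 difference 4.16, SE 0.60, adjusted p = 0.0481), with wild type at 1.60 and 0.564 CPM at day 8, against 90.4 CPM at day 0. For Mael and Ddx4 the wild type libraries had no count at day 8, and the difference did not pass. Mael, a piRNA factor chosen after its values were seen, was at 17.7 and 23.9 CPM at day 8, against 99.5 CPM at day 0 in null cells and at 0 and 0 CPM at day 8, against 20.5 CPM at day 0 in wild type cells (adjusted p = 0.0891 for the difference). Wild type Ddx4 was at 0 and 0 CPM at day 8, against 35.3 CPM at day 0 (adjusted p = 0.194 for the difference). For Dazl, which was near 0 at day 8 in null cells, the difference did not pass either (adjusted p = 0.236 for the difference).

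Genes of the 2-cell embryo, which a rare and transient fraction of ES cells is known to express, went the same way. Of 10 tested (of 15 listed) 8 fell and none rose, and the summed level was 70.8 and 79.1 CPM at day 8, against 567 CPM at day 0. Zscan4f was at 0.725 and 0.576 CPM at day 8, against 178 CPM at day 0 (log2 change -8.01 with SE 0.58, adjusted p = 1.72e-06). Zscan4c was at 0.484 and 0.576 CPM at day 8, against 118 CPM at day 0 (log2 change -7.72 with SE 0.50, adjusted p = 4.11e-06). These paralogs are near-identical, so reads may be split between them. Gm5662 was at 0 and 0.288 CPM at day 8, against 94.6 CPM at day 0 (719.9-fold lower, 95% counting interval 129 to 28485, adjusted p = 6.36e-06).

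**Figure D3:**
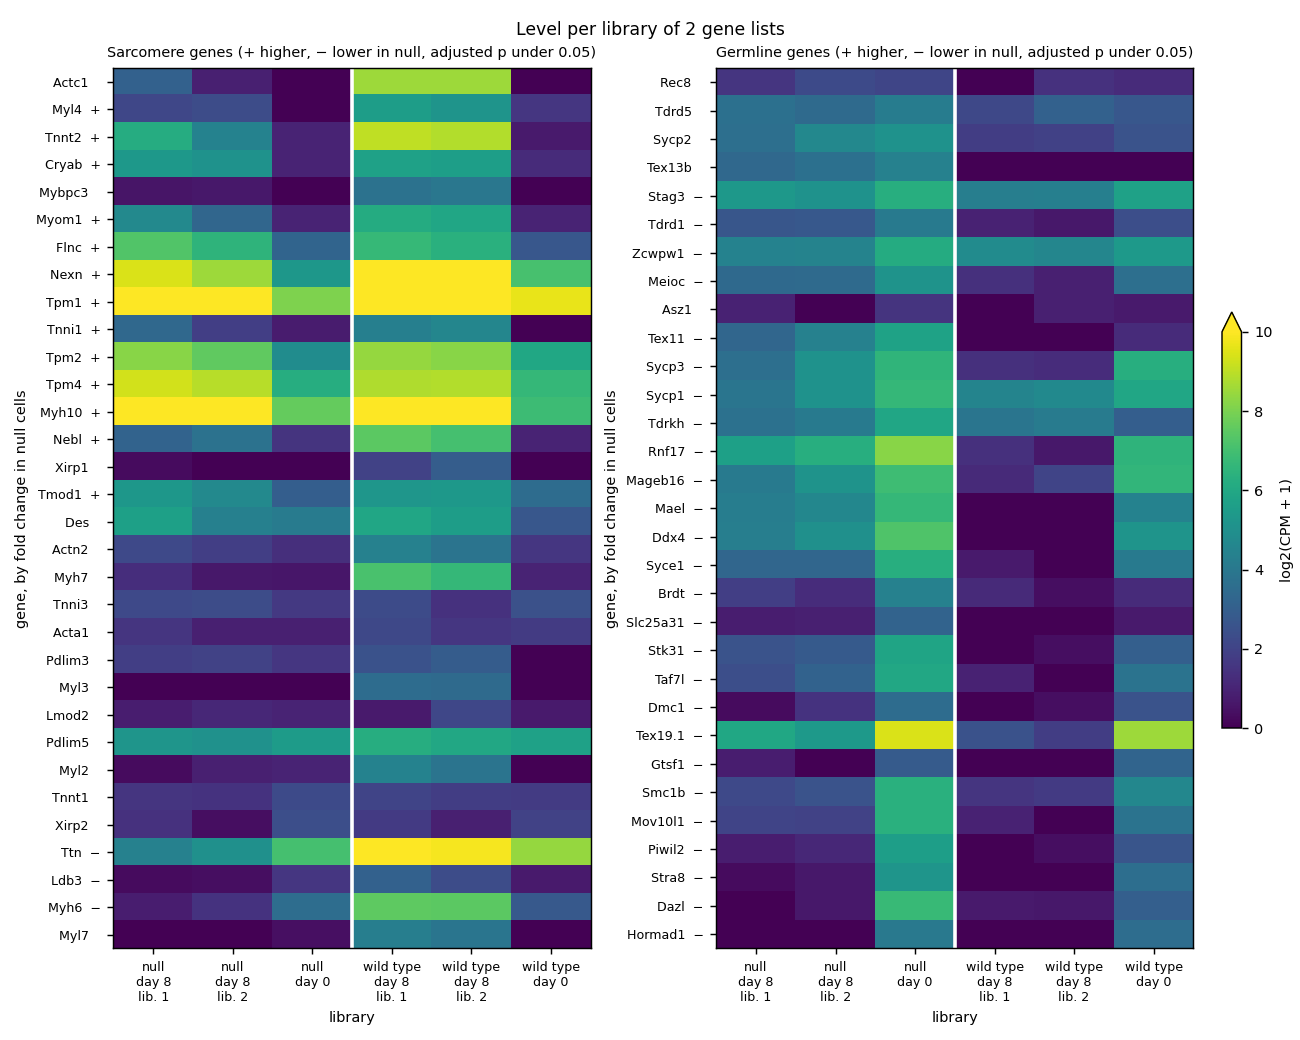
Level per library, log2(CPM + 1) with colours capped at 10, of the tested sarcomere genes (left) and germline genes (right). Columns are the 2 null day 8 libraries, null day 0, the 2 wild type day 8 libraries and wild type day 0, and plus and minus mark genes called higher or lower at null day 8. Tropomyosins and Tnnt2 are brighter at null day 8 than at null day 0, while Ttn and Myh6 are darker, and many germline genes keep some signal at null day 8.

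Mesoderm receptors were higher at day 8, while streak factors were near 0. Of 5 streak and mesoderm genes tested (of 18 listed) 3 rose and 1 fell, or 2 and none without day 8 library 1. T and Mesp1, the factors of the primitive streak and of the first cardiac mesoderm, were not tested, with 0 counts at day 8 and 1 and 0 counts at day 0. Pdgfra, a receptor of paraxial and cardiac mesoderm, rose, at 150.4 and 183 CPM at day 8, against 1.69 CPM at day 0 (log2 change 6.59 with SE 0.36, adjusted p = 1.57e-07). Kdr, the receptor of blood and endothelial progenitors, rose as well, at 82.0 and 72.5 CPM at day 8, against 1.35 CPM at day 0 (log2 change 5.80 with SE 0.64, adjusted p = 3.42e-05). Eomes, a T-box factor of the streak, was lower, at 0.242 and 1.44 CPM at day 8, against 10.3 CPM at day 0 (log2 change -3.63 with SE 1.08, adjusted p = 0.0196), a call lost without day 8 library 1 (adjusted p = 0.112). In bulk RNA, fewer cells of a type and less RNA per cell cannot be told apart, for these genes and for every marker below.

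Transcription factors of the heart came on. Of 24 tested (of 31 listed) 17 rose and none fell, and the median log2 fold change was 4.42, or 4.09 with bounds. Hand2, Tbx5 and Mef2c had no count in the ES cells and were present in both day 8 libraries. Hand2, a basic helix-loop-helix factor of the right ventricle, was at 55.9 and 29.1 CPM at day 8, against 0 CPM at day 0 (at least 85.9-fold higher, adjusted p = 2.33e-05). Tbx5, a T-box factor of the first heart field, was at 9.43 and 7.77 CPM at day 8, against 0 CPM at day 0 (at least 17.1-fold higher, adjusted p = 0.000232). For both, the day 8 libraries were within 2-fold of each other. Mef2c, a MADS-box factor of muscle, was at 13.8 and 16.4 CPM at day 8, against 0 CPM at day 0 (at least 29.5-fold higher, adjusted p = 1.82e-05). Hand1, of the left ventricle and extraembryonic mesoderm, was at 59.7 and 47.2 CPM at day 8, against 0.338 CPM at day 0 (159.6-fold higher, 95% counting interval 43.9 to 1322, adjusted p = 2.92e-05). Gata4 was at 23.9 and 25.9 CPM at day 8, against 2.20 CPM at day 0 (log2 change 3.48 with SE 0.52, adjusted p = 0.000237). GATA4 and its relative GATA6 are zinc finger factors shared by heart and endoderm. Gata6 was at 56.1 and 25.9 CPM at day 8, against 0.338 CPM at day 0 (125-fold higher, 95% counting interval 34.3 to 1037, adjusted p = 9.36e-05). Meis1, a homeobox cofactor, was at 70.8 and 44.6 CPM at day 8, against 0.169 CPM at day 0 (348-fold higher, 95% counting interval 62.1 to 13770.4, adjusted p = 1.18e-06). Isl1, the marker of the second heart field, was low but called, at 3.63 and 5.76 CPM at day 8, against 0.169 CPM at day 0 (27.2-fold higher, 95% counting interval 4.57 to 1104, adjusted p = 0.00733).

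The contractile genes split. Of 32 tested sarcomere genes (of 40 listed) 13 rose, 3 fell and 16 were not called, with a median log2 fold change of 1.62, or 1.04 with bounds. The share called was 50%, against 37.7% of all genes. The summed level of the list was 6706 and 5161 CPM at day 8, against 849 CPM at day 0. Those that rose include tropomyosins, which many cell types use, and troponins, which belong to striated muscle. Tpm1, a tropomyosin, was at 3381 and 2784 CPM at day 8, against 264 CPM at day 0 (log2 change 3.54 with SE 0.24, adjusted p = 5.87e-07). Tnnt2, cardiac troponin T, was at 72.1 and 20.4 CPM at day 8, against 1.02 CPM at day 0 (log2 change 5.48 with SE 1.02, adjusted p = 0.00393). Cryab, a small heat shock chaperone of the Z-disc, was at 39.7 and 32.8 CPM at day 8, against 1.02 CPM at day 0 (log2 change 5.11 with SE 0.44, adjusted p = 3.7e-06). For Tnnt2 library 1 was the higher of the day 8 libraries, and both lay above day 0. Myl4, the atrial light chain of the embryo, was at 3.39 and 4.03 CPM at day 8, against 0 CPM at day 0 (at least 7.25-fold higher, adjusted p = 0.000775). Myom1, a protein of the M-band, was at 25.4 and 8.92 CPM at day 8, against 1.02 CPM at day 0 (log2 change 4.05 with SE 0.72, adjusted p = 0.000916).

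With all libraries, titin, cardiac actin and the heavy chains of cardiac myosin were not called higher. Ttn (ENSMUSG00000051747), the giant protein that runs from Z-disc to M-band, fell, at 19.8 and 31.4 CPM at day 8, against 132 CPM at day 0 (log2 change -2.37 with SE 0.29, adjusted p = 5.85e-05). Myh6, the alpha heavy chain of cardiac myosin, was at 0.725 and 1.73 CPM at day 8, against 10.8 CPM at day 0 (log2 change -3.15 with SE 0.95, adjusted p = 0.0292). Its call was lost without either day 8 library, at adjusted p = 0.204 without library 1 and 0.101 without library 2, and also without either wild type day 8 library, at 0.0582 and 0.0584. Ldb3, a Z-disc protein, was at 0.242 and 0.288 CPM at day 8, against 2.03 CPM at day 0 (7.73-fold lower, 95% counting interval 1.72 to 71.1, adjusted p = 0.0465), a call lost without any one of 7 libraries, at adjusted p up to 0.145 without day 8 library 1. Without any one of the day 8 libraries of either genotype, 1 gene was left of the 3 called lower. Actc1, cardiac actin, was at 7.50 and 0.863 CPM at day 8, against 0 CPM at day 0 and did not pass (at least 8.80-fold higher, adjusted p = 0.0682). It was called higher without any one of 5 libraries, at adjusted p = 0.02 without day 8 library 2, 0.0274 and 0.0283 without each null day 14 library, and 0.043 and 0.0428 without each wild type day 14 library. Myh7, the beta heavy chain, was at 1.45 and 0.576 CPM at day 8, against 0.508 CPM at day 0 and did not pass (2.07-fold higher, 95% counting interval 0.497 to 12.1, adjusted p = 0.549). Library 1 held most of the Actc1 signal, and neither library held much of Myh7.

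Wild type cells held far more of these transcripts at day 8. Ttn there was at 1258 and 918 CPM at day 8, against 341 CPM at day 0, and the difference between the courses passed (log2 difference -4.05, SE 0.43, adjusted p = 0.00831). For Myh6 wild type cells were at 182 and 179 CPM at day 8, against 5.94 CPM at day 0, and the difference of the courses did not pass (log2 difference -8.07, SE 1.25, adjusted p = 0.0774). Actc1 was at 369.9 and 375 CPM at day 8, against 0 CPM at day 0 in wild type cells, and with both day 0 libraries at 0 the difference of the courses has no usable estimate. The median of the list in wild type cells was 3.66, with 26 called higher and none lower.

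The CArG box, the site of serum response factor, stands before many muscle genes. The 200 bases before the RefSeq start (build GRCm38.p6) of 3 muscle genes are given with it in capitals. Actc1 did not pass, Myom1 rose, and Myl9, a smooth muscle light chain, rose.
Actc1, chr2:114052876-114053075, minus strand: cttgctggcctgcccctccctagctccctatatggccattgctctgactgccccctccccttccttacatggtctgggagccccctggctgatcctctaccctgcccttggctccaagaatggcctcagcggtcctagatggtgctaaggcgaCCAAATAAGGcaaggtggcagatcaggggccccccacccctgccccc
Myom1, chr17:71019357-71019556, plus strand: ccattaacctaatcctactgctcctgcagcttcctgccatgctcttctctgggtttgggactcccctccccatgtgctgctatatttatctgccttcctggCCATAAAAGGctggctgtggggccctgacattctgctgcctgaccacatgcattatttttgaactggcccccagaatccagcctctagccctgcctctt
Myl9, chr2:156775264-156775463, plus strand: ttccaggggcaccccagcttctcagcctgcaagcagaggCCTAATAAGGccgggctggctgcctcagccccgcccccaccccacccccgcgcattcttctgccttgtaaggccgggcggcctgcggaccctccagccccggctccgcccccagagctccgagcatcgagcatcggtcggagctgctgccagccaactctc

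The box began 47, 99 and 161 bases before the start in Actc1, Myom1 and Myl9. It was found on either strand in 2 of 17 promoters (11.8%) of matched sarcomere genes called higher. Of those called lower, 2 of 4 promoters held it, both of Ldb3, whose call was not stable. Of those not called, 4 of 18 (22.2%) held it, against 535 of all 32851 promoters (1.63%). Among smooth muscle genes called higher it was found in 1 of 10. The box stood before some genes called higher, some not called and, among those called lower, Ldb3 alone. A window without it says nothing about the factor.

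Genes of calcium cycling and excitation moved in part. Of 27 tested (of 34 listed) 11 rose and 1 fell, which is 44.4% called, against 37.7% of all genes. The median was 1.40, against 3.77 in wild type cells. Gene by gene, the median difference of the courses was -1.08, null minus wild type. Slc8a1, the sodium-calcium exchanger, was at 23.5 and 10.6 CPM at day 8, against 0.508 CPM at day 0 (34.7-fold higher, 95% counting interval 11.6 to 170.3, adjusted p = 0.000111). Cacna1c, the pore of the L-type calcium channel, was at 9.19 and 10.4 CPM at day 8, against 0.338 CPM at day 0 (28.7-fold higher, 95% counting interval 7.68 to 242, adjusted p = 0.000243). Cacna1g, a T-type channel of early heart cells, was at 5.56 and 4.32 CPM at day 8, against 0.169 CPM at day 0 (29.5-fold higher, 95% counting interval 4.99 to 1196, adjusted p = 0.0058). Kcnj5, a potassium channel of the atria, was at 5.32 and 2.59 CPM at day 8, against 0.169 CPM at day 0 (24.1-fold higher, 95% counting interval 4.01 to 981, adjusted p = 0.00703). The only fall was that of Atp2a2, the calcium pump of the sarcoplasmic reticulum, at 286 and 303 CPM at day 8, against 588 CPM at day 0 (log2 change -0.996 with SE 0.18, adjusted p = 0.00116).

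Of the smooth muscle genes, 11 of 16 tested, which is every gene listed, rose and none fell, with a median of 2.88. Acta2, smooth muscle actin, was at 644 and 316 CPM at day 8, against 2.37 CPM at day 0 (log2 change 7.64 with SE 0.54, adjusted p = 1.09e-06). Cald1, which binds actin and calmodulin, was at 7186 and 5578 CPM at day 8, against 645 CPM at day 0 (log2 change 3.31 with SE 0.23, adjusted p = 8.57e-07). Myl9 was at 98.2 and 31.9 CPM at day 8, against 3.38 CPM at day 0 (log2 change 4.26 with SE 0.65, adjusted p = 0.000418). Day 8 library 1 was the higher of the pair for all 3. Actg2, an enteric smooth muscle actin, was at 22.0 and 3.74 CPM at day 8, against 0 CPM at day 0 (at least 26.9-fold higher, adjusted p = 0.00754), with most of its level in library 1. Ptn, a heparin-binding growth factor, was at 218 and 83.7 CPM at day 8, against 1.35 CPM at day 0 (log2 change 6.77 with SE 0.84, adjusted p = 0.000328). The list and the sarcomere list share Tpm2 and Des.

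The list with the largest share of members called higher was that of the extracellular matrix. Of 38 genes of collagens and matricellular proteins, all tested, 33 rose and none fell, or 31 and 1 without library 2, with a median of 4.90, or 4.45 with bounds. The summed level was 16392 and 9545 CPM at day 8, against 589 CPM at day 0. Postn, a matricellular protein of the heart cushions and of fibroblasts, was at 2568 and 2026 CPM at day 8, against 0 CPM at day 0 (at least 4571-fold higher, adjusted p = 1.18e-05). Col1a1, the main chain of type I collagen, was at 2989 and 1019.7 CPM at day 8, against 4.57 CPM at day 0 (log2 change 8.77 with SE 0.84, adjusted p = 0.00012). Col3a1 was at 993 and 549.7 CPM at day 8, against 0.508 CPM at day 0 (1557-fold higher, 95% counting interval 533 to 7554, adjusted p = 1.57e-07). Of these 3, the day 8 libraries differed most in Col1a1, and both stood far above the ES cells. Col5a2 was at 164 and 117 CPM at day 8, against 0 CPM at day 0 (at least 281-fold higher, adjusted p = 6.82e-07). Dcn, a small proteoglycan that binds collagen, was at 43.5 and 29.6 CPM at day 8, against 0 CPM at day 0 (at least 73.2-fold higher, adjusted p = 9.4e-07). Fn1, fibronectin, was already present in ES cells and was at 5327 and 3355 CPM at day 8, against 446 CPM at day 0 (log2 change 3.28 with SE 0.34, adjusted p = 2.2e-05).

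Mesenchymal genes went with the matrix, 12 of 15 tested (of 17 listed) rising and 1 falling, with a median of 4.69, or 4.16 with bounds. Vim, vimentin, the intermediate filament of mesenchymal cells, was at 517 and 254 CPM at day 8, against 21.5 CPM at day 0 (log2 change 4.16 with SE 0.45, adjusted p = 3.45e-05). Zeb2, a repressor of epithelial genes, was at 295 and 164 CPM at day 8, against 1.52 CPM at day 0 (log2 change 7.20 with SE 0.50, adjusted p = 8.26e-07). Cdh11, a cadherin of mesenchyme, was at 266 and 252 CPM at day 8, against 3.89 CPM at day 0 (log2 change 6.04 with SE 0.33, adjusted p = 1.57e-07). Thy1, a surface protein, was the member that fell, at 0.242 and 0.863 CPM at day 8, against 6.26 CPM at day 0 (log2 change -3.48 with SE 0.90, adjusted p = 0.00934), a call lost without day 8 library 1 (adjusted p = 0.0572).

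Adhesion and actin genes also rose, 25 of 32 tested (of 33 listed), with 2 lower and a median of 1.85. Cd44, the hyaluronan receptor, was at 225 and 189.9 CPM at day 8, against 7.11 CPM at day 0 (log2 change 4.86 with SE 0.32, adjusted p = 5.87e-07). Cav1, caveolin of the plasma membrane, was at 18.6 and 11.8 CPM at day 8, against 0.846 CPM at day 0 (log2 change 4.13 with SE 0.75, adjusted p = 0.00118). Itga6, an integrin of ES cells, was lower, at 62.4 and 91.5 CPM at day 8, against 228 CPM at day 0 (log2 change -1.57 with SE 0.28, adjusted p = 0.000824).

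Of 22 epithelial genes tested (of 27 listed) 6 rose (27.3%, against 19% of all genes) and none fell, with a median of 0.54. Epcam, an adhesion protein of ES cells and epithelia, was at 21.3 and 52.7 CPM at day 8, against 86.5 CPM at day 0 and did not pass (log2 change -1.23 with SE 0.58, adjusted p = 0.122). It was called lower without day 8 library 2 (adjusted p = 0.0327) and without either null day 14 library (adjusted p of 0.0296 and 0.0301). Krt8, a keratin of simple epithelia, rose, at 26.6 and 36.0 CPM at day 8, against 1.86 CPM at day 0 (log2 change 4.04 with SE 0.60, adjusted p = 0.000253). Its partner Krt18 was at 80.5 and 107 CPM at day 8, against 4.74 CPM at day 0 (log2 change 4.30 with SE 0.56, adjusted p = 0.000115). Dsp, desmoplakin of desmosomes in epithelia and heart muscle, was at 961 and 694 CPM at day 8, against 59.6 CPM at day 0 (log2 change 3.80 with SE 0.39, adjusted p = 1.71e-05). Library 2 held more than library 1 of each of these but Dsp, and Cdh1, E-cadherin, chosen after its values were seen, was at 89.9 and 314 CPM at day 8, against 274 CPM at day 0 (log2 change -0.44 with SE 0.99, adjusted p = 0.769). Without library 2 the epithelial list had 6 genes higher and 2 lower, Epcam among the lower.

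Blood genes appeared from near 0. Of 21 tested (of 22 listed) 16 rose and none fell, with a median of 5.87, or 5.38 with bounds. Hba-x, the zeta globin of primitive red cells, was at 2299.7 and 604 CPM at day 8, against 0 CPM at day 0 (at least 3005-fold higher, adjusted p = 0.00679). Hbb-y, an embryonic beta globin, was at 414 and 127 CPM at day 8, against 0 CPM at day 0 (at least 558-fold higher, adjusted p = 0.000312). Hbb-bh1, another embryonic beta globin, was at 156 and 128 CPM at day 8, against 0 CPM at day 0 (at least 283-fold higher, adjusted p = 2.39e-06). Library 1 held several times more than library 2 of the first pair, and a near-equal level of the last. Hba-a1 was at 322 and 116 CPM at day 8, against 0 CPM at day 0 (at least 449-fold higher, adjusted p = 0.000772). It has the near-identical copy Hba-a2, so reads may be split between them.

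Endothelial genes rose in 12 of 20 tested cases (of 25 listed), with a median of 3.95, or 3.77 with bounds. Tie1, a receptor kinase of endothelium, was at 12.6 and 6.91 CPM at day 8, against 0 CPM at day 0 (at least 19.7-fold higher, adjusted p = 0.00143). Emcn, a sialomucin of venous endothelium, was at 12.1 and 3.74 CPM at day 8, against 0 CPM at day 0 (at least 16.3-fold higher, adjusted p = 0.0017). Ramp2, a co-receptor for adrenomedullin, was at 13.1 and 13.2 CPM at day 8, against 0 CPM at day 0 (at least 25.9-fold higher, adjusted p = 0.000487). Sox17 was at 6.77 and 7.19 CPM at day 8, against 0 CPM at day 0 (at least 13.7-fold higher, adjusted p = 0.00386), and it also marks endoderm. The only lower member was Pecam1, an adhesion protein that ES cells share with endothelium, at 43.0 and 34.5 CPM at day 8, against 69.0 CPM at day 0 (log2 change -0.83 with SE 0.30, adjusted p = 0.0482). That call was lost without day 8 library 2 (adjusted p = 0.122) and without any 1 of the 4 wild type libraries of days 8 and 14 (adjusted p of 0.0644, 0.0656, 0.0729 and 0.0729).

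Macrophage genes stayed low, with 2 of 18 tested (of 19 listed) higher and 2 lower, and with library totals alone 2 higher and 1 lower. With TMM 22.2% of the list was called, against 37.7% of all genes. Itgam, an integrin of myeloid cells, was lower, at 0.967 and 0.576 CPM at day 8, against 7.78 CPM at day 0 (log2 change -3.26 with SE 0.64, adjusted p = 0.00173). Csf1r, the receptor for macrophage growth factor, was at 1.45 and 0.863 CPM at day 8, against 0 CPM at day 0 (at least 2.33-fold higher, adjusted p = 0.0293), a call lost without library 1 (adjusted p = 0.109). Without library 1, or without either wild type day 14 library, 1 gene was higher and 1 lower.

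Endoderm markers showed a partial pattern. Of 21 visceral endoderm and liver-type genes tested (of 25 listed) 8 rose and 1 fell, with a median of 3.38, or 2.86 with bounds. The share called was 42.9%, against 37.7% of all genes. Afp, alpha-fetoprotein, was at 0.242 and 0 CPM at day 8, against 0 CPM at day 0, at or under the floor in both groups. Ttr, transthyretin, was at 5.32 and 29.1 CPM at day 8, against 0 CPM at day 0 (at least 31.8-fold higher, adjusted p = 0.0202). Foxa2, a forkhead factor of endoderm, was at 2.42 and 6.62 CPM at day 8, against 0 CPM at day 0 (at least 8.54-fold higher, adjusted p = 0.00488). For both, library 2 held more than library 1. Trf, transferrin, was the member called lower (log2 change -2.63 with SE 0.93, adjusted p = 0.0407), and that call was lost without either day 8 library, at adjusted p = 0.127 and 0.0804, and without either wild type day 14 library. Basement membrane genes, which parietal endoderm makes in quantity, rose in 11 of 17 tested cases (of 19 listed) and none fell. Lama4, a laminin chain, was at 83.4 and 80.9 CPM at day 8, against 2.20 CPM at day 0 (log2 change 5.20 with SE 0.41, adjusted p = 1.87e-06). Col4a2, a chain of type IV collagen, was at 49.3 and 41.4 CPM at day 8, against 2.54 CPM at day 0 (log2 change 4.14 with SE 0.40, adjusted p = 9.78e-06).

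Imprinted genes, which are expressed from a single parental copy and many of which govern fetal growth, were mostly higher. Of 27 tested (of 30 listed) 21 rose and none fell, with a median of 2.80. The summed level was 30892 and 24631 CPM at day 8, against 1334 CPM at day 0. H19, a long noncoding RNA expressed from the maternal copy, was at 7098 and 7290.2 CPM at day 8, against 51.3 CPM at day 0 (log2 change 7.13 with SE 0.27, adjusted p = 4.7e-08). Igf2, the paternally expressed growth factor beside it, was at 8179.8 and 4693 CPM at day 8, against 23.4 CPM at day 0 (log2 change 8.10 with SE 0.46, adjusted p = 3e-07). Peg3, a paternally expressed zinc finger gene, was at 7523 and 6492 CPM at day 8, against 137 CPM at day 0 (log2 change 5.68 with SE 0.24, adjusted p = 6.63e-08). For all 3, both day 8 libraries stood far above the ES cells. Dlk1, a Notch-like ligand, was at 1128 and 246 CPM at day 8, against 2.03 CPM at day 0 (log2 change 8.38 with SE 1.42, adjusted p = 0.00591), with most of it in library 1. Meg3, the noncoding RNA of the same locus, was at 215 and 119.7 CPM at day 8, against 24.5 CPM at day 0 (log2 change 2.77 with SE 0.34, adjusted p = 5.73e-05). Airn, the antisense RNA of Igf2r, was at 23.5 and 48.3 CPM at day 8, against 0.169 CPM at day 0 (206-fold higher, 95% counting interval 36.6 to 8158, adjusted p = 1.82e-05). Reads of Airn and of the genes it overlaps cannot be told apart without strand.

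Cdkn1c was the imprinted gene whose null and wild type courses differed by the test. Cdkn1c, which encodes the cell cycle inhibitor p57, was at 169.7 and 211 CPM at day 8, against 4.40 CPM at day 0 (log2 change 5.42 with SE 0.39, adjusted p = 9.56e-07) in null cells and at 89.4 and 107 CPM at day 8, against 25.1 CPM at day 0 in wild type cells, and the difference of the courses passed (log2 difference 3.45, SE 0.47, adjusted p = 0.0481). Plagl1, a zinc finger factor of an imprinted network, rose in null cells, at 161 and 149 CPM at day 8, against 4.91 CPM at day 0 (log2 change 4.97 with SE 0.42, adjusted p = 4.2e-06), and in wild type cells it was at 12543 and 11149 CPM at day 8, against 66.3 CPM at day 0, a difference of courses that did not pass (log2 difference -2.51, SE 0.53, adjusted p = 0.11).

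Hox genes, the classical Polycomb targets that mark position along the body, rose in 20 of 27 tested cases (of 32 listed) and fell in none, with a median of 4.92, or 3.55 with bounds. Hoxa9, a posterior gene of the A cluster, was at 15.2 and 11.8 CPM at day 8, against 0 CPM at day 0 (at least 26.9-fold higher, adjusted p = 0.000145). Hoxb5 was at 10.4 and 8.06 CPM at day 8, against 0 CPM at day 0 (at least 18.4-fold higher, adjusted p = 0.000507). Hoxb4 was at 11.4 and 6.33 CPM at day 8, against 0 CPM at day 0 (at least 17.9-fold higher, adjusted p = 0.000197). Hoxc8 was at 11.8 and 6.33 CPM at day 8, against 0 CPM at day 0 (at least 18.4-fold higher, adjusted p = 0.000819). Each was at 0 in the ES cells and present in both day 8 libraries, somewhat higher in library 1. The summed level of the list was 262 and 171 CPM at day 8, against 15.6 CPM at day 0.

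Ligands and receptors of the pathways that pattern mesoderm changed with them. Of 40 BMP and TGF-beta genes tested (of 45 listed) 22 rose and 3 fell, with a median of 1.94. Bmp2, a ligand that induces heart fate, was at 7.01 and 10.6 CPM at day 8, against 0 CPM at day 0 (at least 17.1-fold higher, adjusted p = 0.000397). Bmp5 was at 25.1 and 62.5 CPM at day 8, against 0 CPM at day 0 (at least 83.1-fold higher, adjusted p = 0.00473). Tgfb2, the ligand of cushion formation, was at 179 and 135 CPM at day 8, against 1.18 CPM at day 0 (log2 change 7.02 with SE 0.42, adjusted p = 3.27e-07). Activin and Nodal ligands, which ES cells make, and a SMAD inhibitor fell. Inhbb, an activin chain, was at 0.967 and 0 CPM at day 8, against 37.1 CPM at day 0 (log2 change -6.07 with SE 0.75, adjusted p = 9.42e-05). Nodal was at 0.967 and 0 CPM at day 8, against 8.63 CPM at day 0 (log2 change -3.98 with SE 1.19, adjusted p = 0.0192), a call lost without library 2 (adjusted p = 0.0619). Smad7, an inhibitory SMAD, was at 14.7 and 18.4 CPM at day 8, against 43.3 CPM at day 0 (log2 change -1.39 with SE 0.33, adjusted p = 0.00577).

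Wnt genes rose in 12 of 29 tested cases (of 41 listed) and 1 fell, which is 44.8% called, against 37.7% of all genes. Wnt2, a ligand of the posterior second heart field, was at 5.80 and 7.77 CPM at day 8, against 0 CPM at day 0 (at least 13.2-fold higher, adjusted p = 0.00049). Dkk2, a secreted Wnt modulator, was at 17.2 and 13.0 CPM at day 8, against 0 CPM at day 0 (at least 30.02-fold higher, adjusted p = 0.00016). Rspo3, which potentiates Wnt signals, was at 26.8 and 34.2 CPM at day 8, against 0.338 CPM at day 0 (89.3-fold higher, 95% counting interval 24.4 to 742, adjusted p = 6.95e-06). The receptor gene Fzd5 was the member called lower, and it lost the call without either day 8 library (adjusted p of 0.134 and 0.0676) or either wild type day 14 library. In the list of FGF, Notch and Hedgehog genes 10 of 32 tested (of 37 listed) rose and 8 fell, or 7 and 5 without library 1. Spry4, a feedback inhibitor of FGF signalling, was lower, at 12.1 and 13.5 CPM at day 8, against 205 CPM at day 0 (log2 change -4.003 with SE 0.43, adjusted p = 3.03e-05). Smo, the transducer of Hedgehog signals, was higher, at 44.0 and 33.4 CPM at day 8, against 8.46 CPM at day 0 (log2 change 2.19 with SE 0.39, adjusted p = 0.000949). Hey2, a Notch target of the ventricle, was higher, at 5.08 and 9.50 CPM at day 8, against 0.338 CPM at day 0 (21.0-fold higher, 95% counting interval 5.53 to 178, adjusted p = 0.00813).

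Secreted growth factors and their binding proteins, of the kind that stroma makes, rose in 15 of 24 tested cases, which is every gene listed, and fell in 1, or 14 and none without library 1, with a median of 2.15. Igfbp5, which binds insulin-like growth factors, was at 514 and 586 CPM at day 8, against 2.03 CPM at day 0 (log2 change 8.06 with SE 0.60, adjusted p = 2.61e-06). Igf1 was at 50.3 and 62.7 CPM at day 8, against 0.169 CPM at day 0 (331-fold higher, 95% counting interval 59.1 to 13096, adjusted p = 2.21e-06). Cxcl12, a chemokine of stromal cells, was at 341 and 172 CPM at day 8, against 1.52 CPM at day 0 (log2 change 7.37 with SE 0.56, adjusted p = 1.86e-06). Both day 8 libraries were high for each of them. Epicardial and retinoic acid genes rose in 8 of 16 tested cases (of 19 listed), with 1 lower. Cyp26b1, which breaks down retinoic acid, was at 6.77 and 7.48 CPM at day 8, against 0 CPM at day 0 (at least 13.98-fold higher, adjusted p = 0.00173). Crabp1, a cytoplasmic carrier of retinoic acid, was lower, at 6.29 and 11.5 CPM at day 8, against 52.3 CPM at day 0 (log2 change -2.56 with SE 0.48, adjusted p = 0.00123).

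Neural genes were divided, with 2 of 13 tested (of 28 listed) higher and 4 lower. That is 46.2% called, against 37.7% of all genes. Stmn2, a tubulin-binding protein of neurons, was at 9.43 and 12.1 CPM at day 8, against 307 CPM at day 0 (log2 change -4.84 with SE 0.37, adjusted p = 1.56e-06). Tubb3, a neuronal tubulin, was at 9.91 and 6.91 CPM at day 8, against 29.4 CPM at day 0 (log2 change -1.80 with SE 0.40, adjusted p = 0.00369). Ncam1, an adhesion protein of neurons and of early heart, was higher, at 479 and 148 CPM at day 8, against 18.4 CPM at day 0 (log2 change 4.09 with SE 0.74, adjusted p = 0.00342). Pax6, the neural and eye factor, was at 4.35 and 8.92 CPM at day 8, against 3.72 CPM at day 0 and did not pass (log2 change 0.81 with SE 0.61, adjusted p = 0.317). Trophoblast genes rose in 5 of 17 tested cases (of 21 listed), with 1 lower, or 4 and none without library 1. With all libraries 35.3% of the trophoblast list was called, near the 37.7% of all genes. Gata3, a factor of trophoblast and mesoderm, was at 73.3 and 59.3 CPM at day 8, against 0.508 CPM at day 0 (132-fold higher, 95% counting interval 44.8 to 641, adjusted p = 6.48e-05). Plac1, a placental gene of the X chromosome, was at 15.7 and 20.1 CPM at day 8, against 0 CPM at day 0 (at least 34.9-fold higher, adjusted p = 7.62e-05). Rhox6, a homeobox gene of placenta and germ cells, was at 34.8 and 46.6 CPM at day 8, against 2.03 CPM at day 0 (log2 change 4.30 with SE 1.40, adjusted p = 0.0437), a call lost without either day 8 library (adjusted p of 0.135 and 0.144), without any 1 null day 14 library and without any 1 wild type day 8 library.

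Genes of the cell cycle fell modestly. Of 28 mitotic genes, all tested, 18 fell and none rose, with a median of -0.85, and with library totals alone 13 fell and the median was -0.61. Mad2l1, a spindle checkpoint protein, was at 123 and 159.7 CPM at day 8, against 521 CPM at day 0 (log2 change -1.88 with SE 0.23, adjusted p = 6.4e-05). Ccnb1, cyclin B1, was at 42.3 and 60.4 CPM at day 8, against 175 CPM at day 0 (log2 change -1.77 with SE 0.27, adjusted p = 0.000315). Mki67, the proliferation marker, was chosen after its values were seen and did not pass, at 1096 and 1212 CPM at day 8, against 978 CPM at day 0 (log2 change 0.24 with SE 0.18, adjusted p = 0.317). Of 27 replication genes, all tested, 14 fell and none rose, with a median of -0.87. Orc1, of the origin recognition complex, was at 38.7 and 52.95 CPM at day 8, against 182 CPM at day 0 (log2 change -1.99 with SE 0.26, adjusted p = 0.000106). Ccne1, cyclin E1, was at 4.84 and 17.6 CPM at day 8, against 50.1 CPM at day 0 (log2 change -2.18 with SE 0.50, adjusted p = 0.00498).

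Inhibitors of the cycle and targets of p53 had 7 of 25 higher and 5 lower, or 4 and 4 without library 1. With all libraries 48% of this list was called, against 37.7% of all genes. Trp53 itself was lower, at 182 and 257 CPM at day 8, against 671 CPM at day 0 (log2 change -1.61 with SE 0.23, adjusted p = 0.000211). Gadd45a, a stress gene, was lower, at 34.8 and 22.7 CPM at day 8, against 92.2 CPM at day 0 (log2 change -1.67 with SE 0.30, adjusted p = 0.001). Ccnd2, cyclin D2, was higher, at 9.91 and 7.48 CPM at day 8, against 0.338 CPM at day 0 (26.0-fold higher, 95% counting interval 6.93 to 219, adjusted p = 0.000263). Cdkn2b, an inhibitor of cyclin D kinases and a known Polycomb target, was at 2.90 and 2.59 CPM at day 8, against 0 CPM at day 0 (at least 5.44-fold higher, adjusted p = 0.0119).

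Of 37 PRC1 genes tested (of 38 listed) 9 rose and 9 fell, and with library totals alone 12 rose and 8 fell. With TMM 48.6% of the PRC1 list was called, against 37.7% of all genes. Cbx7, the chromobox subunit of ES cells, was lower, at 8.95 and 14.1 CPM at day 8, against 69.4 CPM at day 0 (log2 change -2.60 with SE 0.39, adjusted p = 0.000257). Phc1, a Polyhomeotic subunit, was lower, at 110.5 and 90.7 CPM at day 8, against 457 CPM at day 0 (log2 change -2.18 with SE 0.22, adjusted p = 1.47e-05). Both day 8 libraries lay below day 0 for each. Scml2, a Polycomb protein, was lower, at 5.32 and 8.63 CPM at day 8, against 40.8 CPM at day 0 (log2 change -2.55 with SE 0.52, adjusted p = 0.00229). Subunits of the variant that holds BCOR were higher in part. Bcor was at 115 and 138 CPM at day 8, against 28.6 CPM at day 0 (log2 change 2.14 with SE 0.31, adjusted p = 0.000194). Bcorl1, its paralog, was at 35.1 and 31.9 CPM at day 8, against 7.95 CPM at day 0 (log2 change 2.07 with SE 0.38, adjusted p = 0.00116). Usp7, a deubiquitinase of the same complex, was lower, at 329 and 376 CPM at day 8, against 918 CPM at day 0 (log2 change -1.38 with SE 0.20, adjusted p = 0.000211). Auts2, of the variants with PCGF3 or PCGF5, was higher, at 90.7 and 84.0 CPM at day 8, against 21.2 CPM at day 0 (log2 change 2.04 with SE 0.28, adjusted p = 0.000119). Yaf2, the paralog that can take the place of RYBP, was at 13.1 and 17.0 CPM at day 8, against 7.28 CPM at day 0 and did not pass (log2 change 1.04 with SE 0.41, adjusted p = 0.0624).

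PRC2, which methylates histone H3 at lysine 27, mostly fell, with 8 of 13 genes, all tested, lower and 1 higher, and a median of -0.92. Jarid2, an accessory subunit abundant in ES cells, was at 123 and 93.0 CPM at day 8, against 745 CPM at day 0 (log2 change -2.79 with SE 0.21, adjusted p = 1.5e-06). Mtf2, which guides the complex to CpG islands, was at 219 and 248 CPM at day 8, against 1521 CPM at day 0 (log2 change -2.70 with SE 0.20, adjusted p = 1.38e-06). Suz12, a core subunit, was at 139.8 and 194 CPM at day 8, against 521 CPM at day 0 (log2 change -1.64 with SE 0.24, adjusted p = 0.000237). Lcor, whose locus also encodes a PRC2 subunit, was the member called higher, at 69.4 and 83.5 CPM at day 8, against 38.1 CPM at day 0 (log2 change 1.004 with SE 0.28, adjusted p = 0.0148). Without day 8 library 1, and likewise without library 2, 2 genes were higher and 8 lower, and with library totals alone 3 were higher and 8 lower.

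Among DNA methylation enzymes 6 of 14 rose and 5 fell, which is 78.6% called, against 37.7% of all genes. Dnmt3l, a cofactor of de novo methylation in ES and germ cells, was at 0.725 and 1.15 CPM at day 8, against 52.6 CPM at day 0 (log2 change -5.78 with SE 0.49, adjusted p = 1.08e-05). Tet1, which oxidises methylcytosine, was at 18.4 and 19.3 CPM at day 8, against 284 CPM at day 0 (log2 change -3.91 with SE 0.25, adjusted p = 4.48e-07). Tet2 was at 83.4 and 100.4 CPM at day 8, against 421 CPM at day 0 (log2 change -2.19 with SE 0.20, adjusted p = 5.83e-06). In contrast Dnmt3a, the de novo enzyme of differentiated cells, was higher, at 335 and 223 CPM at day 8, against 128 CPM at day 0 (log2 change 1.12 with SE 0.26, adjusted p = 0.00449). Mbd2, which reads methylated CpG, was higher, at 131 and 123 CPM at day 8, against 38.2 CPM at day 0 (log2 change 1.73 with SE 0.24, adjusted p = 0.000159).

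Of 23 genes of the ATF4 stress response and serine synthesis 10 fell and 2 rose, or 8 and 1 without library 1 and 9 and 1 without library 2, with a median of -0.80. With library totals alone 6 fell and 2 rose, and without wild type day 8 library 2, 8 fell and 1 rose. Psat1, an enzyme of serine synthesis, was at 130.3 and 179 CPM at day 8, against 1683 CPM at day 0 (log2 change -3.45 with SE 0.24, adjusted p = 8.83e-07). Asns, asparagine synthetase, was at 39.7 and 46.9 CPM at day 8, against 338 CPM at day 0 (log2 change -2.97 with SE 0.28, adjusted p = 8.07e-06). Respiratory chain genes fell in 9 of 27 cases (of 29 listed) and rose in none, or fell in 7 and rose in 1 without library 2, and with library totals alone 3 fell and 1 rose. With TMM and all libraries 33.3% of the respiratory chain list was called, all lower, against 37.7% of all genes, of which 18.6% were lower. Cycs, cytochrome c, was at 16.9 and 23.3 CPM at day 8, against 82.1 CPM at day 0 (log2 change -2.03 with SE 0.34, adjusted p = 0.000599). Cox5a was at 36.0 and 32.8 CPM at day 8, against 96.5 CPM at day 0 (log2 change -1.48 with SE 0.27, adjusted p = 0.000943). Glycolytic and hypoxia genes rose in 7 of 25 cases and fell in 3, or 4 and 2 without library 1 and 6 and 5 without library 2. With all libraries 40% of the glycolytic and hypoxia list was called, near the 37.7% of all genes. Tpi1, triosephosphate isomerase, was at 121 and 123 CPM at day 8, against 42.8 CPM at day 0 (log2 change 1.51 with SE 0.30, adjusted p = 0.00194). Pfkp, the platelet-type phosphofructokinase, was lower, at 68.7 and 113 CPM at day 8, against 407 CPM at day 0 (log2 change -2.17 with SE 0.30, adjusted p = 0.000151). Cholesterol and lipid synthesis genes rose in 6 of 22 cases (of 23 listed), 27.3% against 19% of all genes, and fell in none. Scd2, a fatty acid desaturase, was at 450.2 and 445 CPM at day 8, against 199.5 CPM at day 0 (log2 change 1.17 with SE 0.19, adjusted p = 0.000512).

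Of the interferon, ribosomal and skeletal muscle genes tested, 23.1%, 30.3% and 42.9% were called, against 37.7% of all genes. Of 26 interferon genes 4 rose and 2 fell, or 3 and none without library 1, and with library totals alone 5 rose and none fell. B2m, the light chain of class I histocompatibility antigens, was higher, at 33.9 and 42.6 CPM at day 8, against 12.9 CPM at day 0 (log2 change 1.57 with SE 0.30, adjusted p = 0.00159). Of 33 ribosomal protein genes 3 rose and 7 fell, or 1 and 8 without library 1 and 6 and 6 without library 2, and with library totals alone 5 rose and 5 fell. Rpl5 was at 169 and 216 CPM at day 8, against 1092 CPM at day 0 (log2 change -2.50 with SE 0.19, adjusted p = 1.5e-06). Rps19 went the other way, at 1152 and 528 CPM at day 8, against 159 CPM at day 0 (log2 change 2.40 with SE 0.40, adjusted p = 0.000817), with the higher level in library 1. These genes have many processed copies, so reads may be split. Of 7 skeletal muscle genes tested (of 16 listed) 1 rose and 2 fell, and with library totals alone 2 rose and 1 fell. Mylpf, a fast muscle light chain, was lower, at 0.484 and 0 CPM at day 8, against 30.3 CPM at day 0 (115-fold lower, 95% counting interval 31.4 to 959, adjusted p = 0.00137). Tnnt3, fast troponin T, was higher, at 9.67 and 13.0 CPM at day 8, against 0.846 CPM at day 0 (log2 change 3.69 with SE 0.66, adjusted p = 0.000972).

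**Figure D4:**
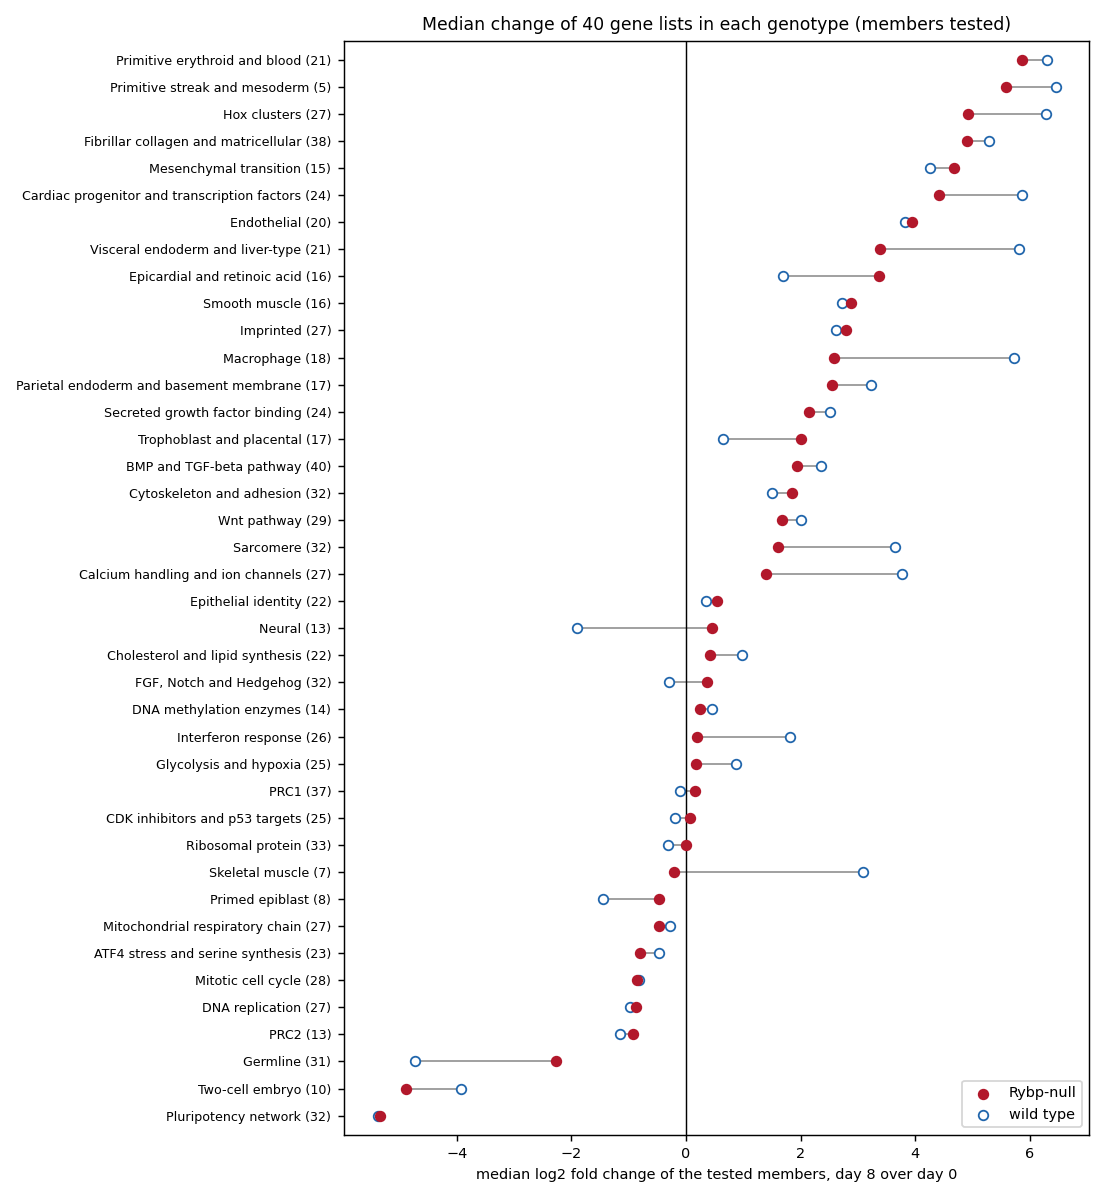
Median log2 fold change, day 8 over day 0, of the tested members of 40 gene lists in Rybp-null cells (filled) and wild type cells (open). The medians lie close for pluripotency, smooth muscle and imprinted genes, and are over 2 apart for skeletal muscle (-0.21 and 3.09), macrophage (2.58 and 5.73), visceral endoderm (3.38 and 5.82), calcium handling (1.40 and 3.77), sarcomere (1.62 and 3.66), neural (0.45 and -1.90) and germline genes (-2.26 and -4.73). The median difference of the courses taken gene by gene, null minus wild type, need not match these gaps. In the order given it was -1.49, -2.44, -1.36, -1.08, -1.99, 0.12 and 0.96. For pluripotency, smooth muscle and imprinted genes it was 0.90, 0.15 and 0.07. The skeletal muscle genes tested summed to 28.7 and 33.0 CPM in wild type cells at day 8, against 47.5 CPM at day 0.

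Most of the null course was shared with wild type cells, whose libraries are separate. Of the 3013 genes higher in null cells 2326 were also higher in wild type cells, which is 77.2% of the null calls and 69.3% of the wild type calls. Of the 2949 lower, 2238 were shared, 75.9% of the null and 73.4% of the wild type calls. Only 12 genes were called in opposite directions. Across the 15819 genes, which are not independent replicates, the log2 fold changes of the courses had a Pearson r of 0.81 and a Spearman rho of 0.81.

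The test of the difference itself called 5 genes (0.0316%), and 1404 genes (8.88%) had an unadjusted p under 0.05, 533 of them (3.37%) with a more positive and 871 (5.51%) with a more negative change in null cells. Ttn, Rnf17 and Cdkn1c are given above. Aim2, a cytosolic DNA sensor, did not pass in null cells, at 11.4 and 10.4 CPM at day 8, against 15.1 CPM at day 0 (log2 change -0.47 with SE 0.34, adjusted p = 0.297), and it fell in wild type cells, at 11.5 and 9.30 CPM at day 8, against 144 CPM at day 0 (log2 difference 3.33, SE 0.48, adjusted p = 0.0481). Fam213a, a peroxiredoxin-like gene, rose in null cells, at 185 and 244 CPM at day 8, against 113 CPM at day 0 (log2 change 0.92 with SE 0.23, adjusted p = 0.0073), and in wild type cells it was at 166 and 158 CPM at day 8, against 16.8 CPM at day 0 (log2 difference -2.34, SE 0.34, adjusted p = 0.0481). The wild type ES cells were the library that stood apart for both, higher for Aim2 and lower for Fam213a than the null ES cells. All 5 calls held without either null day 8 library, none held without wild type day 8 library 1, and no call was made with a replicate block. Only 1 of the 5 held without wild type day 8 library 2, and only 1 without either wild type day 14 library.

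**Figure D5:**
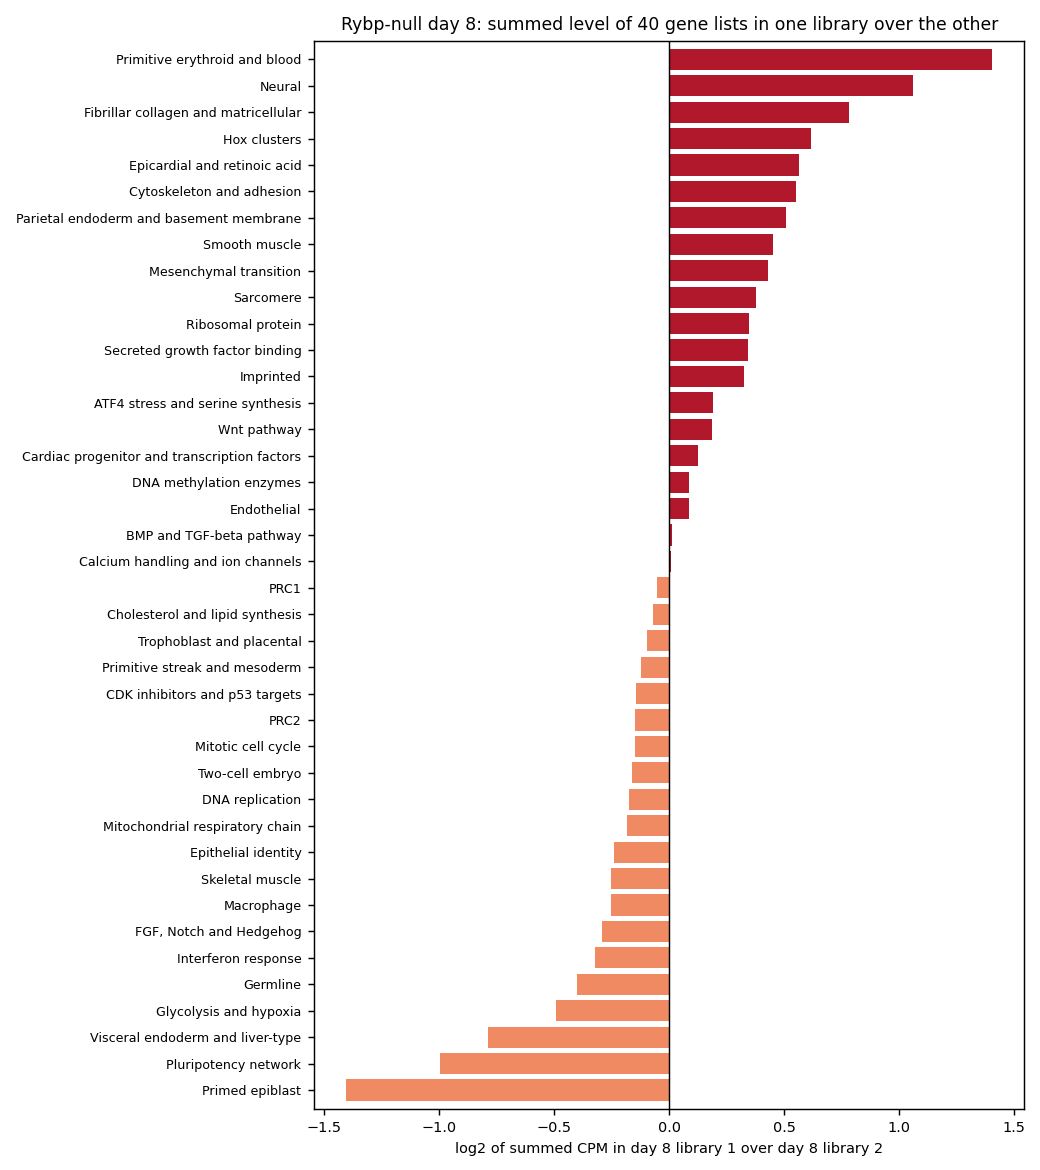
Log2 ratio of the summed CPM of each of 40 gene lists in Rybp-null day 8 library 1 over library 2. Blood genes lie furthest to the right, at 3830 and 1447 CPM, and primed epiblast genes furthest to the left, at 75.9 and 201 CPM.

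The 2 null day 8 libraries were alike in rank, with a Spearman correlation of 0.957 across genes, which are not independent replicates. They differed in the balance of cell type genes. Blood genes summed to 3830 CPM in library 1 and 1447 CPM in library 2, and collagen and matrix genes to 16392 and 9545 CPM. The reverse held for pluripotency genes, at 384 and 767 CPM, and for visceral endoderm genes, at 486 and 840 CPM. Summed levels of cardiac transcription factors, at 1025 and 938 CPM, and of calcium handling genes, at 852 and 846 CPM, were near equal. The part of this difference in the calls above was examined only by leaving each library out. Without library 1, 4939 genes were called, 4610 of them also called with both, and without library 2, 6141 were called.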

How the data were processed

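RNA-seq was analysed from the table the authors deposited, with whole-number counts of reads per Ensembl gene for 36191 gene IDs in 10 libraries. Per the submitters' processing notes, TopHat, HTSeq and DESeq were used with build mm9, and per the labels' protocols libraries were made with NuGEN Ovation and Encore kits. Tool versions, counting options and strand were not given in the sources used here, so reads of overlapping genes cannot be told apart, and an amplifying kit can shift the levels of short or repeated transcripts. Library totals ran from 3028153 to 6890792 counts. Symbols came from GENCODE vM21, which matched 30946 IDs, with 5245 left unnamed, and 21 of 1076 entries of the gene lists had no gene ID. No coordinates of counted genes are given, because the annotation used here is of GRCm38.

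The counts were tested with edgeR 4.0.16 in R 4.3.3: filterByExpr with a minimum count of 10 kept 15819 genes, TMM scaling was used, and a robust quasi-likelihood F-test was run on 6 groups of genotype and day with 4 residual degrees of freedom and Benjamini-Hochberg adjustment over all genes. Contrasts were null day 8 minus day 0, wild type day 8 minus day 0, and their difference. Standard errors were taken as the size of the fitted log2 change divided by the root of its F statistic. Ratios of genes with 1 to 3 counts in a group have 95% counting intervals, and the floor for 0 counts is 3 counts over the group. The procedure was tested on simulated data. Alternatives were DESeq2 1.42.0, other scalings, filters and samples in the fit, a test against a 1.5-fold change, a replicate block, each library left out, and chromosomes 1, 6, 8, 14 and Y left out.

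The members, the 40 gene lists and the tests were chosen with earlier results of these data known. Named genes were a set of fixed lineage, germline, imprinted and Polycomb genes, the 12 called genes with the largest and the 12 with the smallest fold change at 20 CPM or more in the higher group, the 8 with the largest gain and the 8 with the largest loss of CPM, the 4 called members of each list with the largest change in each direction, and up to 10 genes called in the difference in each direction. Not all of them are printed. Any other gene is said to have been chosen after its values were seen.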

Additional observations from a re-analysis of the deposited data

Results flagged for a closer look

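For 5 genes the change from day 0 to day 8 differed between null and wild type cells by the test of the difference itself (edgeR's quasi-likelihood test). Ttn had a log2 difference, null minus wild type, of -4.05 (adjusted p = 0.00831). Its level in both null day 8 libraries lay below null day 0, and in both wild type day 8 libraries above wild type day 0. Fam213a had a log2 difference of -2.34 (adjusted p = 0.0481) and Cdkn1c one of 3.45 (adjusted p = 0.0481). For Rnf17 it was 4.16 (adjusted p = 0.0481), and for Aim2 3.33 (adjusted p = 0.0481). All 5 calls held without either null day 8 library. None held without wild type day 8 library 1 or with the replicate block, and only 1, Ttn, held without wild type day 8 library 2 or without either wild type day 14 library. Each genotype has 1 day 0 library, so each of these differences rests on a pair of single ES cell libraries, and their part in it was not tested.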

How the results depend on the processing

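The count of genes called between null day 8 and day 0 stayed within 1.5 times its value of 5962 under every alternative run. It was 4526 with DESeq2, 4266 against a 1.5-fold change, 5889 with library totals alone, 5971 with RLE scaling, 5380 with a minimum count of 30, 6287 without a filter, 4896 with the 3 null libraries alone, 4670 with the 5 null libraries alone and 4729 without chromosomes 1, 6, 8, 14 and Y, and it ran from 4939 to 6141 with each library left out. The count of the difference between the courses was unstable: against 5, it was 86 with DESeq2, 1 against a 1.5-fold change, 1 with library totals alone, 273 without a filter, 1 without the chromosomes named, and 0 to 46 with each library left out. With the replicate block 5595 genes were called in null cells and 0 in the difference. Same-numbered libraries of different groups had correlations of their deviations from -0.21 to 0.16. With 2 libraries per group, such values do not show whether libraries were paired across groups. Of the named genes, 30 called in null cells lost the call without day 8 library 1 and 13 without library 2, and none reversed. With DESeq2, 28 named genes lost the call, Morc1, Mylpf and Rps2-ps13 among them, and against a 1.5-fold change 26 lost it. At these depths a gene under the floor of 3 counts cannot be told from absent, and the unreplicated day 0 library limits every fold change.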

Other observations

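Some of the largest changes of the null course lay outside the lists. Gimap4, a small GTPase of lymphoid and endothelial cells, was at 99.1 and 71.7 CPM at day 8, against 0 CPM at day 0 (at least 171-fold higher, adjusted p = 1.23e-06). Pcdh7, a protocadherin, was at 65.3 and 48.3 CPM at day 8, against 0 CPM at day 0 (at least 113-fold higher, adjusted p = 2.21e-06). Gm12484, a long noncoding RNA, was at 68.7 and 46.0 CPM at day 8, against 0 CPM at day 0 (at least 115-fold higher, adjusted p = 1.57e-06). All 3 had no count in null ES cells and were within 2-fold between the day 8 libraries. Ahnak, a large scaffold protein below the plasma membrane, had one of the 8 largest gains in CPM, at 2773 and 2255 CPM at day 8, against 187 CPM at day 0 (log2 change 3.75 with SE 0.23, adjusted p = 3.56e-07).

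Other genes outside the lists were lower at day 8. Hsp90aa1, a cytosolic chaperone, was at 1122 and 1351 CPM at day 8, against 8662 CPM at day 0 (log2 change -2.81 with SE 0.20, adjusted p = 8.59e-07). Hspa8, the constitutive member of the HSP70 family, was at 823 and 886 CPM at day 8, against 3877 CPM at day 0 (log2 change -2.18 with SE 0.17, adjusted p = 1.57e-06). Nasp, a histone chaperone, was at 918 and 1016 CPM at day 8, against 3689 CPM at day 0 (log2 change -1.93 with SE 0.18, adjusted p = 7.02e-06). Morc1, an ATPase that silences transposons in germ cells, was at 0 and 0 CPM at day 8, against 38.8 CPM at day 0 (at least 98.3-fold lower, adjusted p = 0.000123). Halr1, a noncoding RNA beside the Hoxa cluster, was at 0 and 0 CPM at day 8, against 31.3 CPM at day 0 (at least 79.4-fold lower, adjusted p = 7.82e-05). In wild type cells Morc1 was at 0 and 0 CPM at day 8, against 82.5 CPM at day 0, and Halr1 at 0 and 0 CPM at day 8, against 36.0 CPM at day 0.

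Processed pseudogenes, copies of spliced transcripts whose reads may come from the parent gene, were called lower in 480 and higher in 26 of 1057 cases, with a median log2 fold change of -1.26. Of 12875 protein-coding genes tested, 2130 were lower and 2702 higher, and of all genes 18.6% were lower and 19% higher. Processed pseudogenes held 3.18% and 3.14% of counts at day 8, against 5.39% at day 0. The largest falls included Rps2-ps13, at 0 and 0 CPM at day 8, against 121 CPM at day 0, and Rpl30-ps10, at 0 and 0 CPM at day 8, against 90.0 CPM at day 0. Chromosome medians of the null course ran from -0.07 to 0.33.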
